A study of Mus musculus with 18 samples.

Results

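The regulators of mitochondrial biogenesis, fusion and fission described here are 10 genes, Ppargc1a, Ppargc1b, Tfam, Nrf1, Esrra, Mfn1, Mfn2, Opa1, Dnm1l and Pink1, of the 16452 genes in a table of RNA-seq read counts from mouse epididymal white adipose tissue (eWAT). They were chosen by name, and all 10 were found and passed the filter on low counts. The tissue came from wild-type male C57BL/6 mice, labelled 24 weeks of age and of the generation Fm. The labels trace these males to zygotes, with in vitro fertilisation named, that were microinjected with the microRNA let-7d, with let-7e or with a negative control. All groups shared the injection procedure, chow until week 6 and then a low-fat diet, which the labels follow to week 15. The samples described numbered 18, with 6 in each group, and 17 libraries were analysed: 5 of control, 6 of let-7d and 6 of let-7e (control 5 is not analysed here). Each microRNA was therefore given at the zygote stage, the RNA was measured in adult fat of a whole tissue with all its cell types, and nothing in the labels says whether littermates were used, so that p-values measure the spread between these samples.

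A mitochondrion is renewed by making more of it and by reshaping it. The coactivators encoded by Ppargc1a and Ppargc1b bind transcription factors, among them those encoded by Nrf1 and Esrra. In this way they raise the transcription of nuclear genes for respiration and of Tfam. The Tfam product packages mitochondrial DNA and takes part in its transcription. Mitofusins (Mfn1, Mfn2) join outer membranes and the Opa1 product joins inner membranes and shapes cristae, while the dynamin-related protein of Dnm1l constricts mitochondria so that they divide. The Pink1 kinase marks damaged mitochondria for removal by autophagy. White adipocytes hold few mitochondria, and a rise of Ppargc1a in fat is known from the browning of adipocytes.

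The injected microRNAs are shown first because the groups are defined by them. In RefSeq (GRCm38.p6), mature let-7d lies at chr13:48536078-48536099 on the minus strand and let-7e at chr17:17830366-17830387 on the plus strand. Capitals mark the seed, bases 2 to 8.
mmu-let-7d-5p: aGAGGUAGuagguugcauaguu
mmu-let-7e-5p: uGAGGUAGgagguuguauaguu
They share the seed and differ, counted from the 5′ end of let-7d, by A1U, U9G and C16U. The DNA match to that seed, CTACCTC, occurred in the longest 3′ UTR (GENCODE M21) of 10.4% of 14171 genes, and of the 10 regulators in that of Tfam alone. The Tfam match began at position 2706 of a 3′ UTR of 3095 bases and was followed by A, a form found in 3.634% of the genes. Among genes with a 3′ UTR of like length 16.92% held the seed match. It is printed with the seed match in capitals.
Tfam 3′ UTR: gactcggagacCTACCTCagat
A match is only a string of letters, and the mice were adult when sampled.

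Promoters were searched for motifs of the factors encoded by this gene set. RefSeq gave 13 promoters for 9 of the 10 genes (Ppargc1b is named only), each a window of 300 bases from 250 before to 50 after the start. The motif of nuclear respiratory factor 1 (GCGC, then A, any base, then GCGC, on either strand) was in those of Opa1 and Pink1, against 4.603% of all 32851 promoters. CCGGAAG, the core motif of GA-binding protein, another factor of nuclear genes for mitochondria, was in those of Mfn1, Tfam and Dnm1l, against 8.858%. No promoter of the set held the estrogen-related receptor motif TCAAGGTCA, which 0.4231% of all promoters held. The matched windows follow, in the direction of the gene and with the match in capitals, from chr16:29579250-29579309 (Opa1, plus strand), chr4:138326272-138326331 (Pink1, minus), chr3:32529413-32529469 (Mfn1, plus), chr10:71238060-71238116 (Tfam, minus) and chr16:16358532-16358588 (Dnm1l, minus) of GRCm38.p6. In Pink1 and Dnm1l the match is on the strand opposite to the gene. No 2 motifs overlapped, since each of these promoters held 1 kind.
Opa1: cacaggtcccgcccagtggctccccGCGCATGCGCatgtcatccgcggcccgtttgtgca
Pink1: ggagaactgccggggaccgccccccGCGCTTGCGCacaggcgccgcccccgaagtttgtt
Mfn1: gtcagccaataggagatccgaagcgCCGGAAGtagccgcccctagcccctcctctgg
Tfam: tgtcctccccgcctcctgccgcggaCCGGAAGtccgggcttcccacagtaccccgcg
Dnm1l: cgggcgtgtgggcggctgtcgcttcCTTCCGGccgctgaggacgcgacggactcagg

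The libraries held 12717365 to 28972306 counted reads, and a regulator had between 28 and 10252 reads in a library. All 12 adipocyte markers were measured, with a summed level of 25704 to 57092 CPM (read counts scaled to library size) across the libraries. A few libraries also held transcripts of other cell types. Control 3 had 26743 CPM of 6 smooth muscle and vas deferens markers, control 6 had 1240 CPM of 6 spermatid markers, and 8 markers of absorptive and ciliated epithelium summed to 622 CPM in let-7d 1, 280 CPM in let-7d 5 and 290 CPM in control 3. By their sample identifiers 4 libraries, let-7d 1 and 2 and let-7e 1 and 2, form an early series and the other 13 a late one, and the early series has no control.

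Compared per length, as TPM, the genes fell into a wide order. TPM are counts divided by exon length and scaled to a fixed sum per library. Exon length is that of all annotated exons of a gene, with overlaps counted once. It is not the length of the transcripts made in this fat, and the order and the ratios between genes depend on it. Pink1 led with 393 ± 60.5 TPM (SD, n = 17), above 98.1% of all genes, and Mfn2 followed with 185 ± 17.1 TPM. Esrra (52.1 ± 11.1 TPM), Dnm1l (45.1 ± 7.79 TPM), Opa1 (33.0 ± 4.13 TPM), Mfn1 (27.6 ± 3.15 TPM) and Tfam (20.0 ± 2.22 TPM) formed the middle. At the bottom were Nrf1 with 5.93 ± 0.789 TPM, Ppargc1b with 3.96 ± 1.47 TPM and Ppargc1a with 2.23 ± 1.49 TPM. The ranges over the libraries did not meet between Pink1 and Mfn2, between Mfn2 and Esrra or between Tfam and Nrf1. Esrra was above Dnm1l in only 10 of 17 libraries, so their order is not resolved, whereas Dnm1l was above Opa1, and Mfn1 above Tfam, in 17 of 17. Opa1 exceeded Mfn1 in 15 of 17, Nrf1 exceeded Ppargc1b in 15 of 17, and Ppargc1b exceeded Ppargc1a in 16 of 17.

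**Figure D1:**
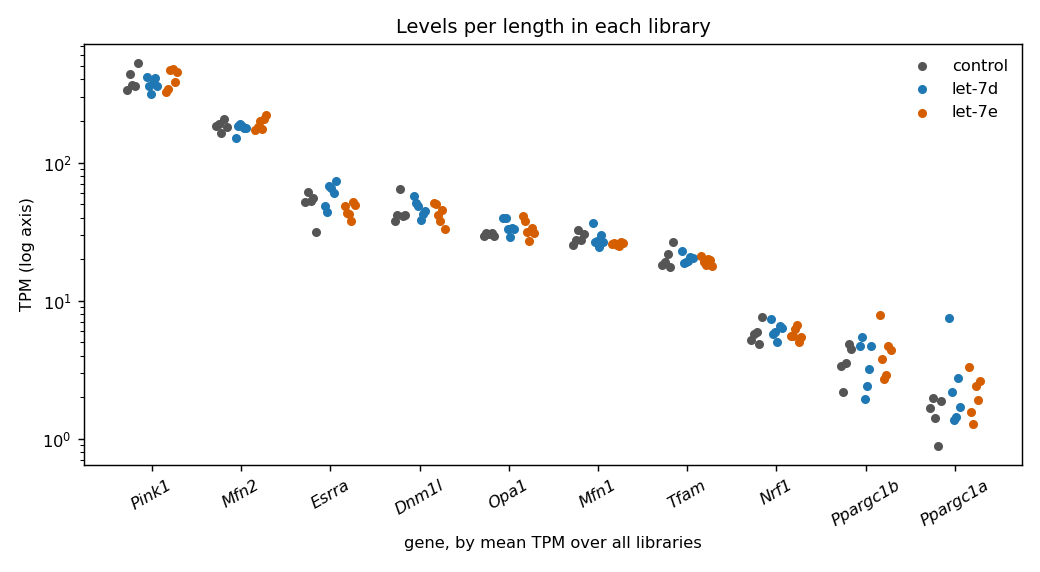
TPM on a log axis of each gene in each of the 17 libraries, with genes ordered by their mean and points coloured by group. Pink1 and Mfn2 lie above all other genes in every library, and Ppargc1a ranges from 0.892 to 7.52 TPM.

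The coactivators were thus at a low level in this fat, with mean TPM below those of Nrf1 and Esrra. Their ranges overlapped with that of Nrf1. Ppargc1b was above Nrf1 in let-7e 1 (7.93 against 5.58 TPM) and, narrowly, in control 4. Ppargc1a was above Nrf1 in let-7d 1 (7.52 against 7.37 TPM). The mitofusins were unequal: Mfn2 was 4.09 to 8.45 times as high as Mfn1 per length, with a mean ratio of 6.53 ± 1.03 in control, 6.38 ± 1.25 in let-7d and 7.50 ± 0.671 in let-7e (SD). The Ppargc1a to Ppargc1b ratio was 0.482 ± 0.263 in control, 0.750 ± 0.453 in let-7d and 0.524 ± 0.167 in let-7e, and only let-7d 1, at 1.59, had more Ppargc1a than Ppargc1b.

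The question put to the groups was whether adult fat differs after a zygote received let-7d or let-7e. None of the 10 regulators passed the test in any of the 3 comparisons: edgeR's quasi-likelihood test, adjusted over all 16452 genes by the Benjamini-Hochberg method, called 0% of genes (0 genes) in each. At an unadjusted p under 0.05, 1 regulator of 10 stood out in let-7d against control, beside 10.2% of all genes, 1 of 10 in let-7e against control, beside 10.5%, and 0 of 10 in let-7e against let-7d, beside 6.67%. That gene was Mfn1 each time, and its share is near the background. DESeq2 called 10, 15 and 14 genes in the 3 comparisons and no regulator. For none of the 10 did the libraries of 2 groups lie apart without overlap, beside 0.517%, 0.632% and 0.237% of all genes in the 3 comparisons. The median log2 fold change of the 10 was -0.13 in let-7d against control (2 positive, 8 negative), where the median of all genes was -0.04 and 42.5% of genes were positive. In let-7e against control it was -0.05 (4 positive, 6 negative), beside -0.04 for all genes, of which 41.9% were positive. Markers of other fat cell types had these values against control, with no gene called: 6 of 6 endothelial markers were positive in let-7d (median 0.13) and in let-7e (median 0.34), and 8 of 8 macrophage markers in let-7d (median 0.31) and 6 of 8 in let-7e (median 0.23). Of 7 thermogenic markers 5 were negative in let-7d (median -0.36) and 5 in let-7e (median -0.39). Control 1 stood out for these, with a summed level of 129 CPM, while the other controls had 13.3 to 43.5 CPM. Of 6 mesothelial markers 5 were negative in let-7d (median -0.15) and 4 in let-7e (median -0.082). The part of these cell types in the regulators' values was not tested. The comparisons with control share the same 5 control libraries, so their values are given side by side and are not independent.

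**Figure D2:**
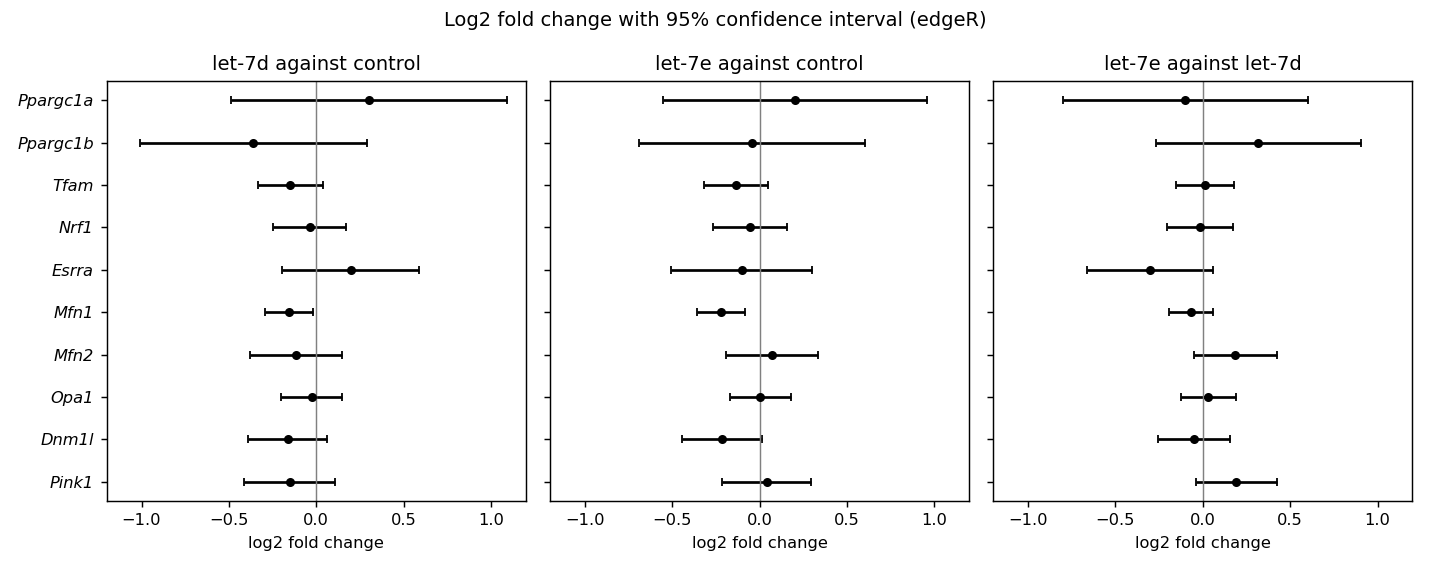
Log2 fold change of each gene (points) with its 95% confidence interval (bars) from edgeR, with 1 panel per comparison. Only the Mfn1 intervals against control leave out 0, and the Ppargc1a and Ppargc1b intervals are the widest.

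Of the biogenesis genes, Ppargc1a (chr5:51454250-51567726) encodes the coactivator best known from brown fat. It was at 4.18, 3.95, 2.87, 2.03 and 3.68 CPM in the 5 controls (1, 2, 3, 4 and 6). In let-7d it had a lowest value of 2.64, a median of 3.82 and a highest of 12.5 CPM, and in let-7e the same values were 2.56, 4.44 and 6.75 CPM. The groups overlapped, and the high value of let-7d was a single library, let-7d 1. The log2 fold change was 0.30 ± 0.37 (SE) in let-7d (edgeR adjusted p = 0.794) and 0.20 ± 0.36 in let-7e (edgeR adjusted p = 0.881). For let-7d it was 0.14 without let-7d 1 and -0.09 without the 4 libraries with other tissues' transcripts, and for let-7e it ran from 0.028 (without let-7e 6) to 0.37 (without let-7d 1) with 1 library left out. let-7d 1 was also the library with the highest epithelial markers, 622 CPM over 8 of 8 genes, among them Hnf4a at 51.4 CPM and Cldn2 at 149 CPM. The same markers summed to 4.57 to 290 CPM in control, 3.97 to 622 CPM in let-7d and 2.83 to 46.1 CPM in let-7e, and Cldn2 was at 0 in control 1 and control 4. Their part in the Ppargc1a value was not tested. In a whole tissue, fewer cells of a type and less RNA per cell cannot be told apart. The 7 thermogenic fat markers summed to 24.0 CPM in let-7d 1, 21.5 to 33.8 CPM over the let-7d libraries, 16.7 to 40.3 CPM in let-7e and 13.3 to 129 CPM in control, and their part in the Ppargc1a value was not tested either. Ucp1 is not analysed here.

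Ppargc1b encodes the related coactivator. Its controls were at 5.04, 2.65, 4.30, 6.67 and 5.32 CPM. let-7d spanned 2.26 to 6.50 CPM with a median of 4.28, and let-7e spanned 3.27 to 9.79 CPM with a median of 5.08. All 3 groups covered much the same range, with let-7e 1 as the highest library. The log2 fold change was -0.36 ± 0.31 (SE) in let-7d (edgeR adjusted p = 0.690), -0.04 ± 0.31 in let-7e (edgeR adjusted p = 0.976) and 0.32 ± 0.28 in let-7e against let-7d (edgeR adjusted p = 0.893). With 1 library left out the value ran from -0.58 (without let-7d 6) to -0.20 (without control 4) in let-7d, from -0.19 (without control 2) to 0.12 (without control 4) in let-7e and from 0.15 (without let-7e 1) to 0.49 (without let-7d 6) in let-7e against let-7d. Its 95% interval in let-7d, -1.01 to 0.29, shows how wide a change these libraries leave possible for a gene of this level.

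Esrra (chr19:6910977-6921813) encodes the estrogen-related receptor alpha, a nuclear receptor that partners with the coactivators. Controls were at 85.6, 82.4, 71.1, 84.1 and 41.0 CPM, and the low value was control 6. let-7d ran from 53.9 to 97.6 CPM with a median of 82.4, and let-7e from 52.1 to 73.4 CPM with a median of 60.9. The let-7e libraries sat low: 0 of 6 lay above the let-7d mean of 78.3 ± 19.3 CPM and 1 of 6 above the control mean of 72.8 ± 18.7 CPM (SD), although the groups overlapped. In let-7d the early libraries, at 53.9 and 56.7 CPM, lay below all 4 late libraries, at 77.5 to 97.6 CPM, whereas in let-7e the early (56.0 to 65.8 CPM) and late (52.1 to 73.4 CPM) libraries overlapped. The log2 fold change of let-7e against let-7d was -0.30 ± 0.17 (SE, edgeR adjusted p = 0.769), of let-7d against control 0.20 ± 0.18 (edgeR adjusted p = 0.718) and of let-7e against control -0.10 ± 0.19 (edgeR adjusted p = 0.890). Within the late series alone let-7e against let-7d was -0.52 ± 0.20 (edgeR unadjusted p = 0.0228, adjusted p = 0.922). Without the 4 libraries it was -0.39 ± 0.13 (edgeR unadjusted p = 0.00932, adjusted p = 0.462). The value of let-7e against control was -0.22 in the late series (edgeR adjusted p = 0.770), -0.32 without the 4 libraries (unadjusted p = 0.0478, edgeR adjusted p = 0.720), and between -0.24 (without control 6) and -0.00067 (without let-7e 4) with 1 library left out. That of let-7d against control was 0.07 without the 4. Without control 6 it went from 0.20 to 0.06. Exons of Esrra share 73 bases with Trmt112 on the opposite strand, and whether reads were counted by strand is not given in the sources used here.

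Nrf1 (chr6:30047988-30153458), is the gene of nuclear respiratory factor 1. Controls held 20.0, 17.9, 18.7, 17.2 and 23.3 CPM, let-7d 17.3 to 20.0 CPM (median 18.5) and let-7e 15.8 to 21.5 CPM (median 18.4). The 3 groups lay over one another. Log2 fold changes were -0.04 ± 0.10 (SE), -0.05 ± 0.10 and -0.02 ± 0.09 in the comparisons of let-7d and let-7e with control and of let-7e with let-7d (edgeR adjusted p = 0.912, 0.889 and 0.994), so the 95% interval of the first, -0.25 to 0.17, is far narrower than that of the coactivators.

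Tfam (chr10:71225464-71238280), the gene with the seed match, had controls at 30.3, 25.7, 29.4, 26.8 and 35.3 CPM. let-7d held 24.5 to 29.2 CPM (median 26.3) and let-7e 24.4 to 28.7 CPM (median 26.7). No library of let-7d or let-7e reached the control mean of 29.5 ± 3.74 CPM (SD, n = 5), while 2 controls lay inside their range. In TPM, let-7d 1, let-7d 5 and let-7e 1 lay above the control mean. The log2 fold change was -0.15 ± 0.09 (SE, edgeR adjusted p = 0.564) in let-7d and -0.13 ± 0.09 (edgeR adjusted p = 0.600) in let-7e. Control 6, the library with spermatid transcripts, was the highest, and without it the values were -0.07 and -0.05, while without all 4 libraries they were -0.04 and -0.02. The 6 spermatid markers summed to 2.18 to 1240 CPM in control, 0.155 to 61.9 CPM in let-7d and 0.596 to 30.7 CPM in let-7e.

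**Figure D3:**
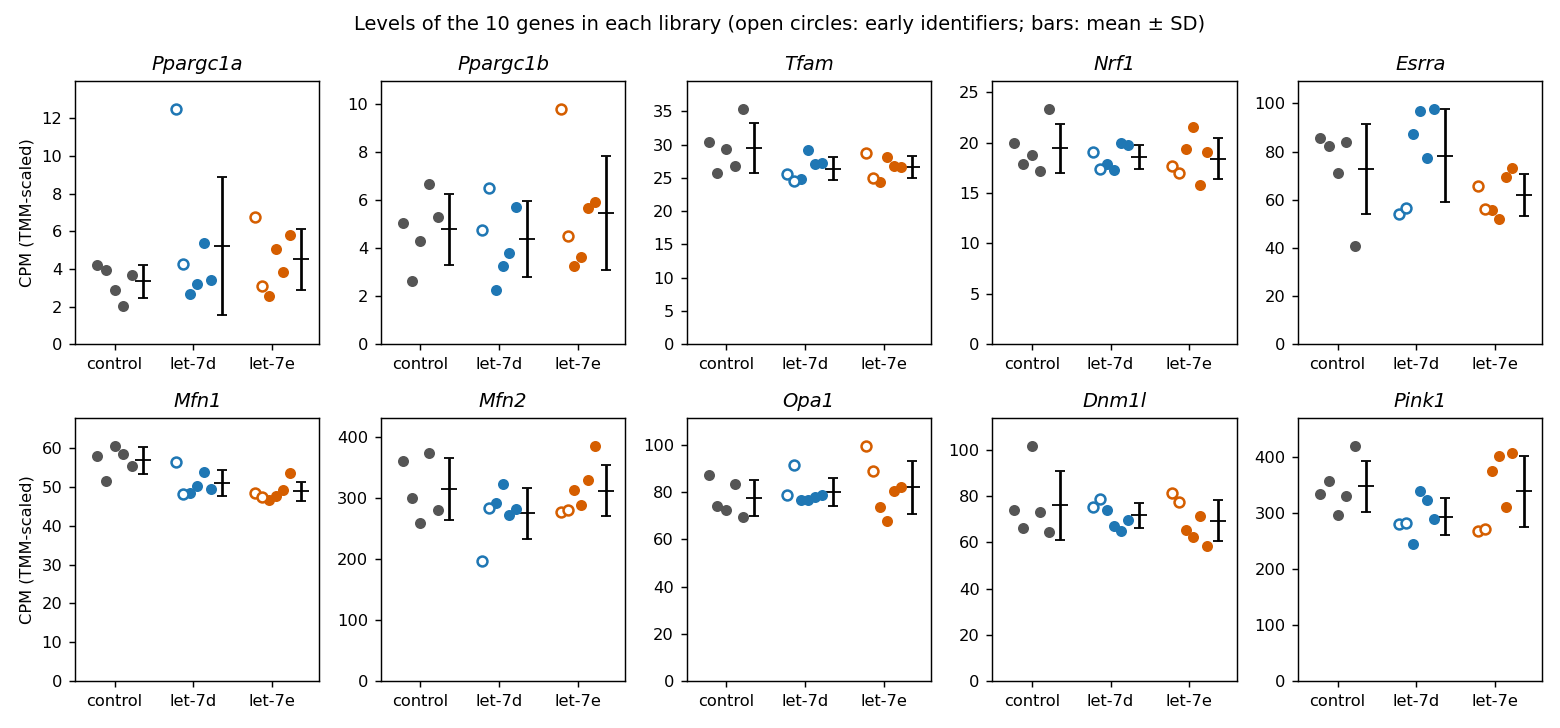
CPM of each gene in each library by group, with open circles for the early identifier series and bars for the group mean and SD. In CPM, though not in TPM, Mfn1 of let-7d and let-7e lies below the control mean in 12 of 12 libraries. Single libraries stand out for Ppargc1a (12.5 CPM), Dnm1l (102 CPM) and Opa1 in let-7d (91.8 CPM).

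Of the fusion genes, Mfn1 (chr3:32529465-32579239) encodes the smaller contributor by level of the mitofusins and was the regulator with an unadjusted p under 0.05. Controls were at 58.1, 51.6, 60.6, 58.5 and 55.5 CPM. In let-7d the libraries ran from 48.0 to 56.4 CPM with a median of 49.9, and in let-7e from 46.6 to 53.6 CPM with a median of 48.0. No let-7d or let-7e library reached the control mean of 56.8 ± 3.42 CPM (SD, n = 5). Control 2 and control 6 lay within the let-7d range and control 2 within the let-7e range. In TPM, which is not TMM-scaled, the let-7d mean was close to that of control. The means were 28.7 ± 2.78 TPM in control, 28.5 ± 4.32 in let-7d and 25.7 ± 0.637 in let-7e (SD). By this measure let-7d 1, at 36.6 TPM, lay above the highest control, at 32.5 TPM. The log2 fold change was -0.15 ± 0.065 (SE) in let-7d, with an unadjusted p of 0.0300 and an edgeR adjusted p of 0.473. In let-7e it was -0.22 ± 0.065, with an unadjusted p of 0.00358 and an edgeR adjusted p of 0.356. Neither passed the threshold. The adjusted p in let-7e equals the smallest of that comparison. The Benjamini-Hochberg method can give the same value to many genes, so this does not rank Mfn1 first. As folds the values against control are 0.898 and 0.858 of control, and let-7e against let-7d was -0.07 ± 0.06 (edgeR adjusted p = 0.895). Without the 4 libraries the values against control were -0.17 and -0.17, and within the late series -0.17 and -0.21. With any 1 library left out they stayed between -0.19 and -0.11 for let-7d and between -0.25 and -0.18 for let-7e. The unadjusted edgeR p in let-7d was not under 0.05 in several of these settings. They were those without control 1, 3, 4 or 6, let-7d 3, 4 or 6, or let-7e 1 or 4. With a filter at a mean of 5 CPM that p was 0.0647. The spread of Mfn1 within groups was among the smallest of the table, since only 0.504% of the 16452 genes had a lower SD of log2 CPM.

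Mfn2 (chr4:147873599-147904704) encodes the mitofusin that also tethers mitochondria to the endoplasmic reticulum. Controls were at 360, 299, 259, 374 and 280 CPM, let-7d at 196 to 323 CPM (median 282) and let-7e at 277 to 385 CPM (median 301). The lowest library was let-7d 1, and 6 of 6 let-7e libraries lay above the let-7d mean of 274 ± 42.4 CPM, though the groups overlapped. In TPM, let-7e 1 and let-7e 4 lay below the let-7d mean. Log2 fold changes were -0.12 ± 0.12 (SE) in let-7d, 0.07 ± 0.12 in let-7e and 0.19 ± 0.11 in let-7e against let-7d (edgeR adjusted p = 0.761, 0.881 and 0.781). Without the 4 libraries the let-7e value turned to -0.07. With 1 library left out the let-7d value ran from -0.16 (without control 3) to -0.031 (without control 4). The let-7e value ran from 0.013 (without let-7e 6) to 0.16 (without control 4). That of let-7e against let-7d ran from 0.13 (without let-7d 1) to 0.25 (without let-7d 2). In let-7e against let-7d 8 of 12 adipocyte markers had a positive log2 fold change with a median of 0.26. Of all genes 46.9% were positive, with a median of -0.01. The summed level of the markers was 41031 to 57092 CPM in let-7e, 25704 to 50686 CPM in let-7d and 31950 to 56083 CPM in control. The lowest was let-7d 1, and the other let-7d libraries had 36574 CPM or more. The part of the adipocyte markers in the Mfn2 values between groups was not tested.

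Opa1 (chr16:29579334-29654884), the inner membrane fusion gene, did not separate the groups. Controls were at 87.5, 74.2, 72.6, 83.7 and 69.5 CPM, let-7d at 76.9 to 91.8 CPM (median 78.2) and let-7e at 67.8 to 99.7 CPM (median 81.4). The 3 highest values were in early libraries, with 99.7 and 89.0 CPM in let-7e 1 and 2 and 91.8 CPM in let-7d 2, while let-7d 1, also early, was at 78.7 CPM, inside the late let-7d range of 76.9 to 78.7 CPM. Log2 fold changes were -0.03 ± 0.08 (SE) in let-7d and 0.0042 ± 0.08 in let-7e (edgeR adjusted p = 0.926 and 0.991), with 95% intervals of -0.20 to 0.15 and -0.17 to 0.18.

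Dnm1l (chr16:16312230-16358959), the fission gene, had controls at 74.1, 66.2, 102, 73.3 and 64.6 CPM. let-7d held 65.2 to 78.8 CPM (median 72.0) and let-7e 58.4 to 81.6 CPM (median 68.5). Apart from control 3 the groups lay over one another. The log2 fold change was -0.16 ± 0.11 (SE, edgeR adjusted p = 0.601) in let-7d and -0.21 ± 0.11 (edgeR adjusted p = 0.498) in let-7e. Without control 3, the library with 26743 CPM of smooth muscle and vas deferens markers, these were -0.02 and -0.07, and without the 4 libraries -0.027 and -0.11. Those markers, 6 of 6 measured, summed to 69.0 to 127 CPM in the other controls, 88.3 to 308 CPM in let-7d and 98.9 to 142 CPM in let-7e, and their part in the value of control 3 was not tested. The Opa1 to Dnm1l ratio per length, a measure of fusion against fission transcripts, came to 0.471 in control 3, and the 4 remaining controls had 0.710 to 0.780.

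Pink1 (chr4:138313409-138326307), the mitophagy kinase, had controls at 334, 357, 296, 331 and 419 CPM. let-7d ran from 245 to 338 CPM (median 285) and let-7e from 268 to 407 CPM (median 342). No let-7d library reached the control mean of 347 ± 45.8 CPM (SD, n = 5), whereas 3 of 6 let-7e libraries did. In TPM, let-7d 1 and let-7d 5 lay above the control mean. Log2 fold changes were -0.15 ± 0.12 (SE) in let-7d, 0.04 ± 0.12 in let-7e and 0.19 ± 0.11 in let-7e against let-7d (edgeR adjusted p = 0.675, 0.934 and 0.769). Control 6 was the highest library, and without it the let-7d value was -0.07. In let-7e against let-7d the value was 0.32 ± 0.14 in the late series (unadjusted p = 0.0384, edgeR adjusted p = 0.922). With 1 library left out it ran from 0.13 (without let-7d 3) to 0.23 (without let-7e 5).

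The identifier series is known here only from how samples are numbered. Early against late, a term of the same model that was examined after the data were seen, had an adjusted p under 0.05 for 12.2% of all genes and for 0 of 10 regulators. At an unadjusted p under 0.05 it held 4 of 10 regulators, beside 24.7% of all genes. Those were Opa1 with 0.22 ± 0.08 (log2, SE) and Dnm1l with 0.23 ± 0.10, higher in the early libraries, and Pink1 with -0.27 ± 0.12 and Mfn2 with -0.26 ± 0.12, lower in them (edgeR adjusted p = 0.0757, 0.171, 0.162 and 0.190). In let-7e the early Pink1 libraries, at 268 and 271 CPM, lay below the late ones, at 310 to 407 CPM, while in let-7d the early ones, at 281 and 282 CPM, lay within the late range of 245 to 338 CPM. Mfn2 in let-7e was at 277 and 280 CPM in the early libraries, below the late ones at 288 to 385 CPM. In let-7d its early libraries, at 196 (let-7d 1) and 284 CPM, overlapped the late range of 271 to 323 CPM. For Mfn1 the term was 0.0038 ± 0.062 (edgeR adjusted p = 0.981).

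Ppargc1a was set against each of the other 9 genes across the 17 libraries, in log2 CPM, since its product acts on several of them. None of the 9 relations passed the Benjamini-Hochberg adjustment of a two-sided permutation test (100000 resamples). The nearest was Mfn2, with Pearson's r = -0.52 (permutation p = 0.0372, adjusted p = 0.335) and Spearman's rho = -0.27 (permutation p = 0.294, adjusted p = 0.631). It rested on the libraries farthest from the Ppargc1a median, control 4 and let-7d 1, and r was 0.16 without them and -0.0075 in the late series. For Tfam, r was 0.02 (permutation p = 0.946, adjusted p = 0.946), and for Esrra, -0.30 (permutation p = 0.250, adjusted p = 0.837).

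The 10 genes were set against the mean log2 CPM of the 12 adipocyte markers and of 8 mitochondrially encoded messenger RNAs, 20 relations chosen after seeing the data. Mfn2 had r = 0.86 (permutation p = 1e-05, the smallest that 100000 resamples can give, adjusted p = 2e-04) and rho = 0.79 (permutation p = 0.00026, adjusted p = 0.0052) with the adipocyte markers. Of 14542 genes outside the marker list that averaged 1 CPM or more, 37 (0.254%, Mfn2 among them) had an r as high. The Mfn2 value was 0.80 without control 3 and let-7d 1, the libraries farthest from the marker median (adjusted permutation p = 0.0144), and 0.78 within the late series (adjusted permutation p = 0.0120). Without the 4 libraries r was 0.77 with an adjusted permutation p of 0.0582. No other relation passed. Dnm1l had a negative r with the adipocyte markers (r = -0.59, permutation p = 0.0179, adjusted p = 0.179), and r was -0.34 without the same 2 libraries. Opa1 (r = 0.51, permutation p = 0.0376, adjusted p = 0.242) and Dnm1l (r = 0.49, permutation p = 0.0484, adjusted p = 0.242) had the highest r with the mitochondrial messenger RNAs. Tfam, whose product takes part in their transcription, had r = 0.15 (permutation p = 0.550, adjusted p = 0.647). Points in such a relation share the library's scaling.

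**Figure D4:**
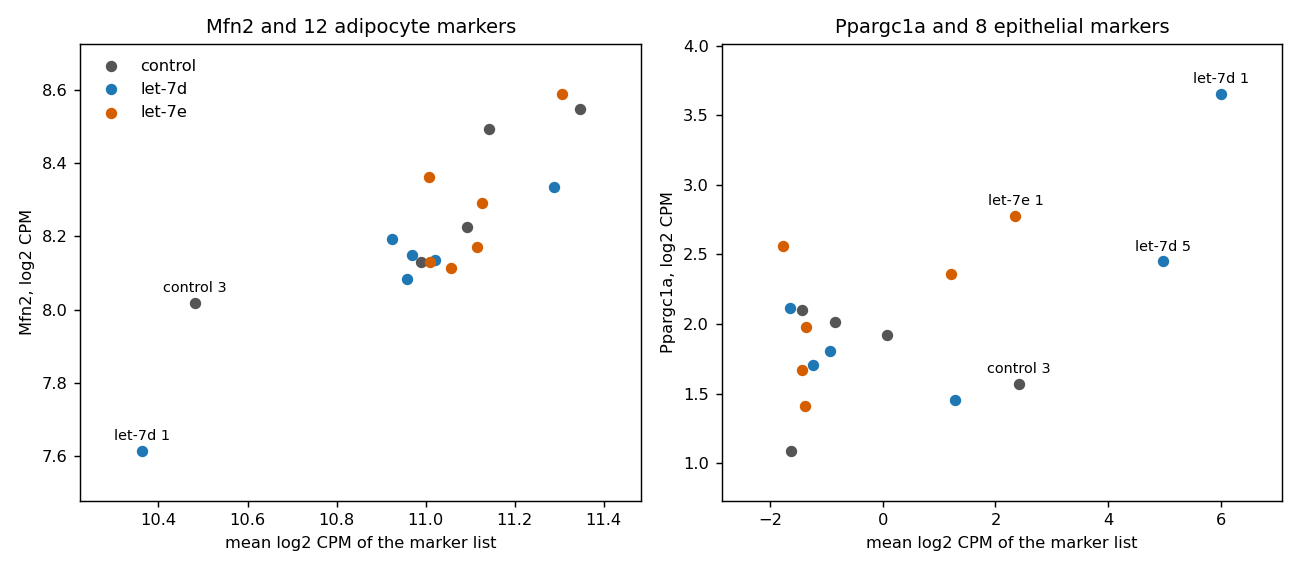
Left, Mfn2 in log2 CPM against the mean log2 CPM of 12 adipocyte markers. Right, Ppargc1a against 8 epithelial markers, with each point a library coloured by group. Mfn2 is lowest in let-7d 1 and control 3, the libraries with the lowest adipocyte markers, and Ppargc1a is highest in let-7d 1, the library with the highest epithelial markers.

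The genes whose levels were most like those of the variable members were found by Pearson's r of log2 CPM over the 17 libraries as a description, taking 14553 genes that averaged 1 CPM or more. For Ppargc1a they were Ccdc162 (r = 0.82), Gm867 (0.81), Slc4a4 (0.80), Bbs4 (0.79) and Slc12a2 (0.79), of which Slc4a4 encodes a bicarbonate and Slc12a2 a chloride cotransporter. These r include let-7d 1, with Ppargc1a at 12.5 CPM against at most 6.75 CPM elsewhere and the highest epithelial markers. They were not computed without that library. For Ppargc1b the genes most alike were Lin52 (0.78), Btf3l4 (0.77), Baz1a (0.77), Nip7 (0.76) and Asf1a (0.75). For Esrra they were Ykt6 (0.90), Narfl (0.90), Agfg2 (0.89), Def8 (0.88) and Cox7a1 (0.88), the last a subunit of cytochrome c oxidase of muscle and brown fat.

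Around the 10 regulators, 113 of 115 genes in 6 lists of the same pathways were measured, and no gene of any list passed the adjusted threshold of edgeR in any comparison. Among 20 further biogenesis regulators, 7 were positive and 13 negative in let-7d against control (median log2 fold change -0.05), and 13 positive and 7 negative in let-7e (median 0.01), beside medians of -0.04 and -0.04 for all genes. Sirt1, a deacetylase that acts on the Ppargc1a product, was at 16.8 ± 2.63 CPM in let-7d, 19.9 ± 1.84 CPM in let-7e and 19.9 ± 1.58 CPM in control (SD). Its log2 fold change in let-7d was -0.35 ± 0.086 (SE), with an unadjusted p of 0.000956 and an edgeR adjusted p of 0.456. That adjusted p is the smallest of the comparison, but the Benjamini-Hochberg method gave it to other genes too. Tk2, Usp30, Tfb1m and Sqstm1 shared it, at larger unadjusted edgeR p of 0.00501, 0.00554, 0.00930 and 0.00940. Tfeb, a regulator of lysosome genes, had 0.25 ± 0.12 in let-7e (edgeR adjusted p = 0.459), and Nfe2l2, the antioxidant response factor and the most abundant of the list at 64.1 TPM, had -0.06 in let-7d and 0.0016 in let-7e.

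Of 19 genes of mitochondrial DNA maintenance and transcription, 6 were positive and 13 negative in let-7d (median -0.07), and 7 positive and 12 negative in let-7e (median -0.05), but 10 and 12 were positive without control 1. That library had the highest summed level of the 8 mitochondrially encoded messenger RNAs, 63724 CPM, and its part in the counts was not tested. Tk2, the mitochondrial thymidine kinase, was at 34.5 ± 2.51 CPM in let-7d and 44.1 ± 2.70 CPM in control, with a log2 fold change of -0.29 ± 0.09 (SE, edgeR adjusted p = 0.456). Tfb1m, which methylates mitochondrial ribosomal RNA, had -0.55 ± 0.19 in let-7d and -0.46 ± 0.19 in let-7e (edgeR adjusted p = 0.456 and 0.417), and the latter was -0.30 without control 6. Rrm2b, a ribonucleotide reductase subunit, had 0.29 ± 0.09 in let-7e against let-7d (edgeR adjusted p = 0.700), and Lonp1, a matrix protease that degrades the Tfam product, -0.20 and -0.05 against control, the former -0.056 without control 1.

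In the list of fusion and inner membrane shape 2 of 16 were positive in let-7d (median -0.07) and 2 of 16 in let-7e (median -0.05), beside 42.5% and 41.9% of all genes positive, but 11 and 9 were positive without control 1. The count moved by over 1.5 times with other libraries left out too, between 1 and 11 in let-7d (also control 2 and 4, let-7d 1, 2 and 5 and let-7e 1) and between 0 and 10 in let-7e (also control 2, 3 and 4, let-7d 1 and let-7e 3, 4 and 6). 2410015M20Rik, a subunit of the complex at cristae junctions, had -0.30 ± 0.11 (SE) in let-7e (edgeR adjusted p = 0.387), Afg3l2, an inner membrane protease, -0.21 ± 0.11 in let-7d (edgeR adjusted p = 0.517), and Miga1, an outer membrane fusion factor, -0.58 ± 0.38 in let-7e against let-7d (edgeR adjusted p = 0.828), which was -0.17 without let-7d 1, the library with the most epithelial transcripts, and 0.13 without the 4 libraries. Among 16 fission genes 4 were positive in let-7d (median -0.11; 2 without control 3) and 5 in let-7e (median -0.09). Akap1, which anchors protein kinase A at the outer membrane, had -0.43 ± 0.17 in let-7d (edgeR adjusted p = 0.461) and -0.21 without control 6. Mul1, an outer membrane ubiquitin ligase, had -0.17 ± 0.08 in let-7e (edgeR adjusted p = 0.501), and Prkaca, the catalytic subunit of that kinase, 0.03 and -0.07.

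Mitophagy genes were positive in 3 of 26 in let-7d (median -0.08) and 5 of 26 in let-7e (median -0.07), and in 8 and 11 of 26 without control 1. Across the libraries left out in turn the count ran from 0 to 8 in let-7d (moving over 1.5 times also for control 4, let-7d 1, 4 and 5 and let-7e 1 and 4) and from 3 to 11 in let-7e (also control 4 and let-7e 4 and 6). Usp30, a mitochondrial deubiquitinase that restrains mitophagy, had a log2 fold change of -0.26 ± 0.08 (SE) in let-7d (edgeR adjusted p = 0.456). Sqstm1, an autophagy receptor and the most abundant of the list at 460 TPM, had -0.30 ± 0.10 in let-7d and -0.19 ± 0.10 in let-7e (edgeR adjusted p = 0.456 and 0.520). In the list of import and proteostasis 7 of 16 were positive in let-7d (median -0.04) and 5 of 16 in let-7e (median -0.03), with 12 of 16 in let-7e without control 1, 9 without control 4 and 8 without let-7e 3 or let-7e 4. Atf5, a transcription factor of the mitochondrial stress response, had the positive values 0.51 ± 0.20 and 0.51 ± 0.21 (edgeR adjusted p = 0.471 and 0.422), Trap1, a mitochondrial chaperone, had 0.16 ± 0.13 in let-7e against let-7d (edgeR adjusted p = 0.877), and Hspa9, the matrix chaperone of import, had -0.15 and -0.09 against control, the former -0.014 without control 1.

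**Figure D5:**
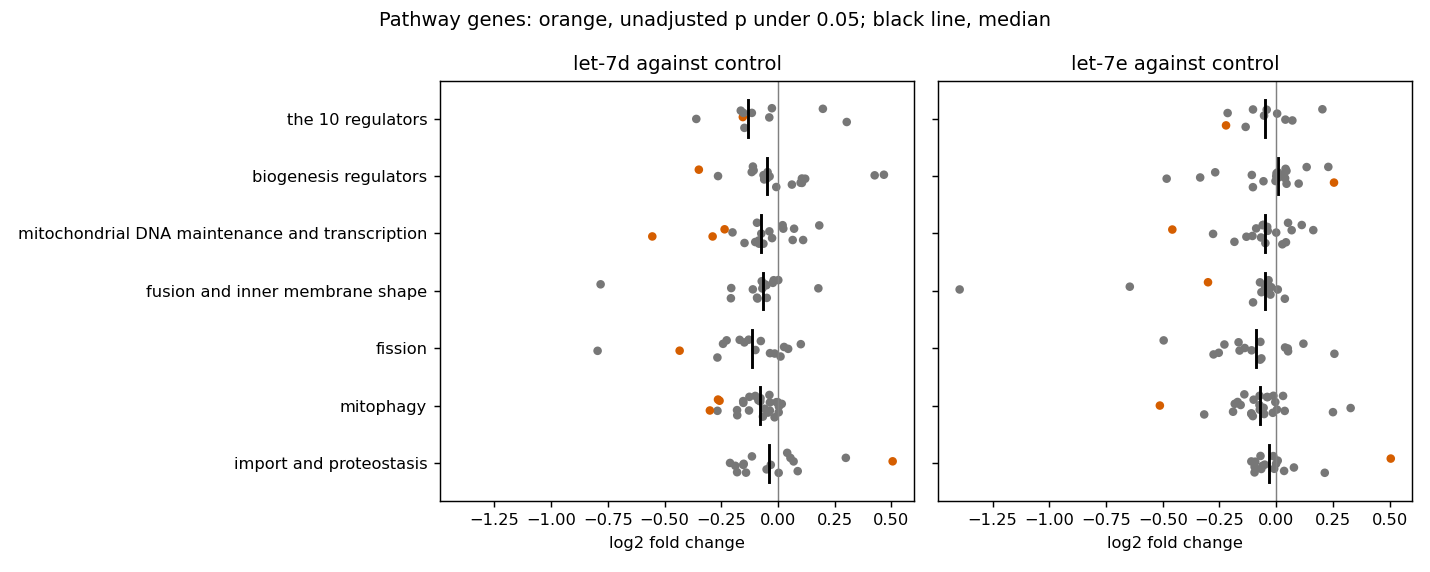
Log2 fold change against control of each gene (points) in the 6 pathway lists and of the 10 regulators, with orange for an unadjusted p under 0.05 and a black line at each median. The medians lie between -0.13 and 0.01, and none of the points passed the adjusted threshold.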

How the data were processed

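RNA-seq was of whole eWAT, 17 libraries. The authors deposited whole-number read counts per Ensembl gene, which they name as filtered on CPM with no threshold stated. Per the submitters' processing notes, STAR and GRCm38.p6 were used, and the counting tool, strand setting and versions are not given in the sources used here. A second deposited table was not used, because the gene lengths its values imply differ between libraries. Gene names came from GENCODE M21 (16438 of 16452 identifiers matched, 14 had no symbol), and microRNA and promoter sequences from RefSeq.

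In R 4.3.3, edgeR 4.0.16 fitted the counts with TMM scaling, filterByExpr (0 genes removed) and terms for group and identifier series (4 early, 13 late). Fold changes account for the series, whereas group means do not. P-values are two-sided and adjusted by Benjamini-Hochberg over 16452 genes, with a threshold of 0.05. SEs are the log2 fold change over the root of the F statistic, and the common biological coefficient of variation was 0.360. Levels are TMM-scaled CPM, log2 CPM (prior count 2) or TPM from exon length. DESeq2 1.42.0 was an alternative. On simulated counts with genes changed 2-fold, the test recovered 63% in let-7d against control, 60% in let-7e against control and 63% in let-7e against let-7d. The simulation also held genes changed 4-fold, and it drew all libraries from the same gene means, with no series difference and no other tissues' transcripts. Changes under 2-fold, such as those of the regulators, were not simulated, so these shares do not apply to them. Genes named were all 10 members and, per list, the member of smallest p in each comparison and the most abundant, of which 1 is not reported here. No 2 libraries of the same group were within counting noise of each other, and pairs from different groups were not compared. The members and lists were chosen with earlier results of these data known.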

Additional observations from a re-analysis of the deposited data

Results flagged for a closer look

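In 42 groups of values (the 10 genes and 4 ratios in the 3 groups), 4 single libraries lay far from the rest of their group by Dixon's criterion, where chance gives about 1 in 20. They were Dnm1l at 102 CPM in control 3, against 64.6 to 74.1 CPM in the other controls, Opa1 at 91.8 CPM in let-7d 2, against 76.9 to 78.7 CPM in the rest of let-7d, Ppargc1a at 12.5 CPM in let-7d 1, against 2.64 to 5.37 CPM, and the Opa1 to Dnm1l ratio of 0.471 in control 3. Control 3 and let-7d 1 are the libraries with smooth muscle and epithelial transcripts, and the part of these in the values was not tested. No comparison moved in opposite directions in every library of 2 groups.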

How the results depend on the processing

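The edgeR counts of called genes stayed at 0 in the 3 comparisons with other scaling, filters, terms and samples, and with each library left out. DESeq2 called 10 genes in let-7d against control, 15 in let-7e against control and 14 in let-7e against let-7d, with adjusted p-values for 15835, 15835 and 12215 genes, and no regulator among them. At an unadjusted p under 0.05, edgeR counted 1676, 1729 and 1097 genes. In the late series let-7e against let-7d had 2 of 10 regulators at that level, beside 838 of 15927 genes. Of the 30 regulator fold changes 16 kept their sign under every alternative and 14 did not, and 0 passed the threshold under any. A filter at a mean of 5 CPM left 11277 genes and removed Ppargc1a and Ppargc1b, which have no value there.

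Signs changed as follows (log2, cause not tested). Without the 4 libraries, chosen after seeing the data: Mfn1 0.0025, Nrf1 0.038, Opa1 -0.00068, Hspa9 -0.026, Miga1 0.13 and Ppargc1a 0.41 in let-7e against let-7d, Nrf1 0.017, Nfe2l2 0.00091, Ppargc1a -0.094 and Prkaca -0.11 in let-7d against control, and Mfn2 -0.068, Nrf1 0.055 and Opa1 -0.076 in let-7e against control. In the late series: Nrf1 0.014, Opa1 -0.028, Tfam -0.031, Ppargc1a 0.24 and Hspa9 -0.0037 in let-7e against let-7d, Opa1 0.0024 in let-7d against control and -0.026 in let-7e against control. Without the series term: Opa1 0.049 in let-7d against control, and Mfn2 -0.012, Pink1 -0.037 and Ppargc1b 0.19 in let-7e against control.

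With the replicate number as a block, 0 genes were called in each comparison. Values that changed sign under the block were Esrra 0.088, Hspa9 0.054, Lonp1 0.073, Nfe2l2 -0.098 and Prkaca 0.14 in let-7e against control and Opa1 0.0015 in let-7d against control. Whether the numbers pair the samples cannot be told, since pairs with different numbers were not compared. Of 16 pairs with the same number 6 had a correlation of deviations over 0.1 (-0.33 to 0.50). The highest was that of let-7d 1 with let-7e 1, which are both of the early series. The block also gave 10 positive mitophagy genes of 26 in each comparison with control, where DESeq2 size factors gave 5 in let-7d.

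Correlations with Ppargc1a that changed sign were Mfn1, -0.065 in the late series and -0.12 without the 4 libraries, Mfn2, 0.16 without the 2 libraries farthest from the median, Opa1, -0.044 in the late series, and Pink1, 0.0025 by rank, 0.44 in the late series, 0.11 centred on group means, 0.21 without the 2 libraries and 0.17 without the 4.

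With any 1 library left out, values that changed sign ranged as follows. In let-7d against control: Nrf1 -0.066 to 0.045, Opa1 -0.055 to 0.028, Nfe2l2 -0.12 to 0.0081 and Prkaca -0.065 to 0.19. In let-7e against control: Nrf1 -0.097 to 0.028, Opa1 -0.024 to 0.065, Pink1 -0.0042 to 0.13, Ppargc1b -0.19 to 0.12, Hspa9 -0.15 to 0.046, Lonp1 -0.11 to 0.097, Nfe2l2 -0.054 to 0.051 and Prkaca -0.16 to 0.096. In let-7e against let-7d: Nrf1 -0.062 to 0.030, Opa1 -0.0064 to 0.069, Tfam -0.024 to 0.041 and Ppargc1a -0.25 to 0.24. Depth limits mainly Ppargc1a and Ppargc1b, which had as few as 28 and 45 reads in a library.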
